A study of Mus musculus with 57 samples.

Results

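Binding of NANOG and of SOX2 before GATA6 induction was compared region by region in undifferentiated mouse embryonic stem (ES) cells. The 2 NANOG and the 2 SOX2 peak lists of the 0 h time point were used, out of 30 peak lists analysed. A reproducible region of a protein was a merged stretch holding a peak of both of its lists. NANOG had 7513 such regions and SOX2 had 17260. Their union gave 18806 regions, of which 5893 were shared, 1550 were NANOG-only and 11363 were SOX2-only. All 30 lists together merged into 202062 regions.

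All libraries of both groups came from KH2 ES cells of strain C57BL/6 carrying the TRE:GATA6-DSREd2 transgene, a GATA6 and dsRed2 cassette behind a doxycycline-responsive element that was left off at 0 h. Cells were kept in 2i medium with LIF and without doxycycline. Binding was mapped by CUT&RUN, in which an antibody directs a nuclease to cut and release the DNA around a bound protein. By their labels the groups differed in the antibody (NANOG or SOX2). The labels do not say whether the libraries of both groups were prepared together, and the lists also differed in depth. Each group had n = 2 lists, and the labels do not say whether replicates were separate cultures, so the spread between them may be technical. The GATA6 lists of the same uninduced cells held peaks at no more than 0.441% of the regions of any class. Those lists were short, with 84 and 880 peaks against 10691 to 31693 in the NANOG and SOX2 lists. The part of list length in this low share was not tested.

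NANOG is a homeodomain protein and SOX2 an HMG-box protein. In ES cells both act with OCT4 at enhancers that maintain pluripotency, and SOX2 and OCT4 read a joined DNA element in which a SOX site lies next to an octamer. SOX2 is also used outside the pluripotent state, for example in neural progenitors, whereas NANOG marks the epiblast and ES cells.

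The sequences below show the strongest region of each class, regions near pluripotency genes that the results turn on, and a transfer RNA (tRNA) gene overlapping a SOX2-only region. Each is 121 bases of the forward strand of GRCm38.p6, centred on the summit, or on the gene for the tRNA. In the first 10, capitals mark matches on either strand to a SOX core (CATTGT or CTTTGT), the octamer (ATGCAAAT), the SOX-octamer composite (TTGTNATGC) or a NANOG core (TAATGG). In the last, capitals mark the tRNA gene.
shared, Slc9a9, chr9:94661909-94662029: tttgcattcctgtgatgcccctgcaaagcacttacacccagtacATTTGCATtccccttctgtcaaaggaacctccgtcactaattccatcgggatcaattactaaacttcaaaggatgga
shared, Nanog, chr6:122702731-122702851: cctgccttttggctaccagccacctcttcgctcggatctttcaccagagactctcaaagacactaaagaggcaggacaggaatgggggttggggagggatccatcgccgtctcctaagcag
shared, Sox2, chr3:34653968-34654088: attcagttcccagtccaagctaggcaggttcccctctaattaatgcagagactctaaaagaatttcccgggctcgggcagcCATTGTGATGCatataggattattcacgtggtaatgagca
shared, Prdm14, chr1:13085067-13085187: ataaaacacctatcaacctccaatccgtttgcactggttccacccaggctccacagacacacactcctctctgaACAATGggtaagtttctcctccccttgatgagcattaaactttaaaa
shared, Esrrb, chr12:86501642-86501762: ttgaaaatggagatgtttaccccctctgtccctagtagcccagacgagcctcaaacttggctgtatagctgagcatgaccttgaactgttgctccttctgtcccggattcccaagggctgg
shared, Tbx3, chr5:119680036-119680156: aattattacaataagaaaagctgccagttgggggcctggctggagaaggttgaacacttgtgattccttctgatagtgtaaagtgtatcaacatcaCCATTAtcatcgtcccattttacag
NANOG-only, Ptpn22, chr3:103850608-103850728: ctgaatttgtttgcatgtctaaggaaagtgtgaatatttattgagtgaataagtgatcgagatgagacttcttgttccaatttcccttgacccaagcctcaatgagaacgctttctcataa
NANOG-only, Sox2, chr3:34646415-34646535: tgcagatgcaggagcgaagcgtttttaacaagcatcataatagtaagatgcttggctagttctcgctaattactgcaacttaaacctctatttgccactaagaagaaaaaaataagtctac
SOX2-only, Pou5f1, chr17:35504117-35504237: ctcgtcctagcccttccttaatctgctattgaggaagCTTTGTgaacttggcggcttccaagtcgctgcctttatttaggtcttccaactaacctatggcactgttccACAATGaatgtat
SOX2-only, Mast3, chr8:70792640-70792760: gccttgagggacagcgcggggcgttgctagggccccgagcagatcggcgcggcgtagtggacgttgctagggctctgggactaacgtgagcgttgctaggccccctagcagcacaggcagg
SOX2-only, tRNA-Gln gene, chr13:21172327-21172447: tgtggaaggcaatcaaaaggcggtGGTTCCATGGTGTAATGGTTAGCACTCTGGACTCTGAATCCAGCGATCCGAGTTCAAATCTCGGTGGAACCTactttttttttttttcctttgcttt
The region 3623 bp downstream of the Sox2 start held the joined element itself, a SOX core overlapping a composite match. The region 1841 bp upstream of Pou5f1, the gene for OCT4, held 2 SOX cores. The Prdm14 window held 1 SOX core, the Tbx3 window 1 NANOG core, and that of the strongest shared region, near Slc9a9, 1 octamer. The printed windows at Nanog, Esrrb, Ptpn22, Mast3 and the NANOG-only region at Sox2 held none of these letters. In the Mast3 promoter the 10-base run cgttgctagg occurred 3 times.

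Most NANOG regions of the full lists lay on SOX2 regions, and a smaller share of the longer SOX2 lists lay on NANOG regions. With the top 10000 peaks of every list the contrast nearly vanished, with 59.4% of NANOG and 53.2% of SOX2 regions in the shared class. Of the NANOG regions 79.4% (5963 of 7513) overlapped a SOX2 region, and of the SOX2 regions 34.2% (5897 of 17260) overlapped a NANOG region. Single lists gave the same order. Of the peaks of NANOG replicates 1 and 2, 65.0% and 58.2% lay on SOX2 regions, against 19.9% and 24.0% of the peaks of SOX2 replicates 1 and 2 on NANOG regions. For comparison, 70.8% and 46.9% of the peaks of NANOG replicates 1 and 2 lay on a peak of the other NANOG list. Peaks of NANOG replicate 2 met the peaks of either SOX2 list more often, in 65.3% of cases with each, than those of the other NANOG list. The SOX2 lists were longer, with 31693 and 26824 peaks against 10691 in NANOG replicate 1. The part of list length in this comparison was not tested.

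**Figure D1:**
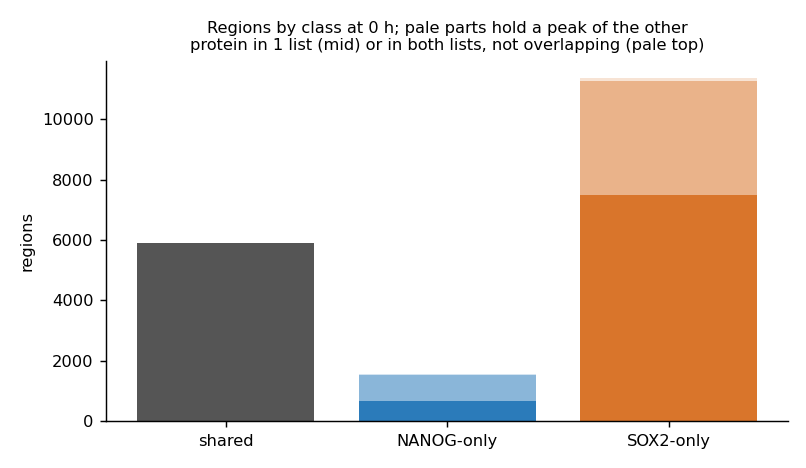
Number of regions (vertical axis) in each class at 0 h. Full colour in the NANOG-only and SOX2-only bars marks regions with no peak of the other protein in either list (655 and 7482), the middle shade those with such a peak in 1 list (879 and 3769) and the palest part those with peaks in both lists that did not overlap (16 and 112).

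Most NANOG-only regions were not free of SOX2. A SOX2 peak was present in 1 of the 2 lists at 56.7% of them, and 42.3% (655 regions) had none in either list. Of the SOX2-only regions 33.2% had a NANOG peak in 1 list and 65.8% (7482) had none. The lists differed in length and depth. NANOG replicates 1 and 2 held 10691 and 16178 nuclear peaks over a background of 0.902 and 1.17 fragments per base, and the smallest pileup called was 6 and 7 fragments. SOX2 replicates 1 and 2 held 31693 and 26824 peaks over a background of 0.416 and 0.575, with a smallest pileup of 4 and 5. The NANOG lists had the higher background and were the shorter ones. The part of depth in the class sizes was not tested. With the top 10000 peaks of every list, 3697 regions were shared, 2532 NANOG-only and 3254 SOX2-only. Class sizes also moved with the replicate rule, since taking NANOG replicate 1 or 2 alone gave 3737 or 6763 NANOG-only regions, and taking SOX2 replicate 1 or 2 alone gave 25376 or 20391 SOX2-only regions.

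Both proteins were more strongly enriched where they met. NANOG fold enrichment over the control (the highest peak of a list in each region) had a median of 6.70 and 8.30 in replicates 1 and 2 at shared regions, and of 5.38 and 6.36 at NANOG-only regions. The log2 ratio of the medians was 0.35 ± 0.05 (SD, n = 2). SOX2 fold enrichment had a median of 10.57 and 11.01 at shared regions and of 6.53 and 6.45 at SOX2-only regions, a log2 ratio of 0.73 ± 0.05 (SD, n = 2). Both lists of each protein gave the same direction, with differences larger than their spread. These values are descriptions, since peaks of the same lists set the classes. Where a peak of the other protein was present outside the shared class, it was lower than at shared regions. The SOX2 peaks at 409 and 502 NANOG-only regions had a median fold of 5.48 and 6.05, and the NANOG peaks at 865 and 3128 SOX2-only regions one of 4.73 and 5.23.

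**Figure D2:**
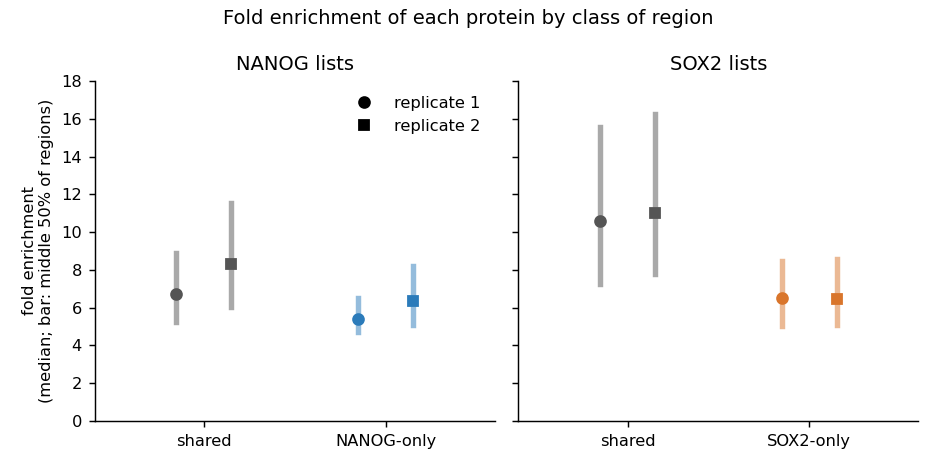
Fold enrichment (vertical axis, median with the middle 50% of regions as a bar) of NANOG in the NANOG lists and of SOX2 in the SOX2 lists, by class of region and replicate. In each of the 4 lists the median of the shared class lies above that of the class bound by one protein.

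The share of regions bound by both proteins was higher at stronger regions, with a wider range for SOX2. In the weakest decile of SOX2 regions (median mean fold 4.43) 6.72% also held a NANOG region, and in the strongest decile (19.7) 86.0% did. For NANOG the corresponding shares were 64.9% (4.34) and 97.7% (15.2). Promoter regions ran the other way. The share within 1 kb of a protein-coding transcription start site (TSS) was 26.2% in the weakest and 6.78% in the strongest decile of SOX2 regions, and 13.4% and 2.66% for NANOG. Within the shared class the levels of the proteins were only loosely related across regions. Spearman's rho of the folds was 0.66 between the NANOG replicates and 0.77 between the SOX2 replicates, and between 0.36 and 0.45 for the 4 pairings of a NANOG with a SOX2 list (n = 5893 regions, which share libraries and background).

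The strongest shared regions, by the mean of their fold ranks in the 4 lists, lay 7940 bp upstream of Slc9a9, 933 bp downstream of the start of Rbpj, 84438 bp into Car8, within Trdn and 68773 bp upstream of Pax1. Rbpj encodes the DNA-binding partner of the Notch pathway. At the Slc9a9 region NANOG fold was 30.5 and 39.2 and SOX2 fold 69.9 and 87.6 in replicates 1 and 2, and at Rbpj NANOG fold was 34.2 and 32.7 and SOX2 fold 64.3 and 53.3. The strongest NANOG-only regions reached much lower values. The first, 9609 bp upstream of Ptpn22 and inside Bcl2l15, had a NANOG fold of 16.8 and 19.4 and a SOX2 peak of fold 4.94 in replicate 1 only. The next were in introns of Lpp, Myo1e, Lrpprc and Syt16, and of these 5 regions only that in Myo1e (12.6 and 16.1) had no SOX2 peak in either list. The strongest SOX2-only region was the Mast3 promoter, with a SOX2 fold of 50.1 and 47.2 and no NANOG peak in either list. It was followed by the Gnai2 promoter (39.7 and 30.8), a region 14100 bp upstream of Tor1b (36.0 and 31.7), one far from Med13l (36.3 and 26.9) and the promoter of Hsph1 (41.2 and 21.9), a heat-shock protein gene. Thus 3 of the 5 strongest SOX2-only regions and 1 of the 5 strongest shared regions were promoters, against none of the NANOG-only ones.

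Shared regions were the widest. The median width was 823 bp for shared, 569 bp for SOX2-only and 376 bp for NANOG-only regions, and merging peaks of 4 lists widens the first by construction. Single peaks gave the same order. NANOG peaks were 369 and 435 bp wide at shared and 261 and 293 bp at NANOG-only regions, and SOX2 peaks 688 and 644 bp at shared and 459 and 403 bp at SOX2-only regions (medians, replicates 1 and 2). Inside shared regions the summits of the proteins lay almost as close together as those of replicates. The median distance was 61 bp between the NANOG replicates and 68 bp between the SOX2 replicates, and from 66 to 80 bp for the 4 pairings of NANOG with SOX2. Summits of different proteins lay within 100 bp in 58.7% to 65.2% of regions, against 68.9% and 63.8% for replicates.

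SOX2-only regions lay at promoters more often than shared or NANOG-only regions. Of the SOX2-only regions 22.6% (2571) had their summit within 1 kb of a protein-coding TSS, against 6.55% (386) of the shared and 3.42% (53) of the NANOG-only regions. Such windows make up 2.37% of the genome. Within 5 kb the shares were 33.5%, 16.8% and 14.3%, with 9.84% of the genome. SOX2-only regions free of any NANOG peak lay at promoters more often still (26.5%), and NANOG-only regions free of any SOX2 peak less often (2.75%). The median distance to a TSS was 14937 bp for SOX2-only, 29976 bp for shared and 28622 bp for NANOG-only regions. Beyond promoters, 53.2% of NANOG-only summits lay in introns, 40.5% were intergenic and 2.84% exonic. For shared regions these shares were 42.9%, 47.6% and 2.92%, and for SOX2-only regions 36.1%, 36.9% and 4.39%. Introns make up 38.9% and intergenic bases 54.6% of the genome by the same rule.

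**Figure D3:**
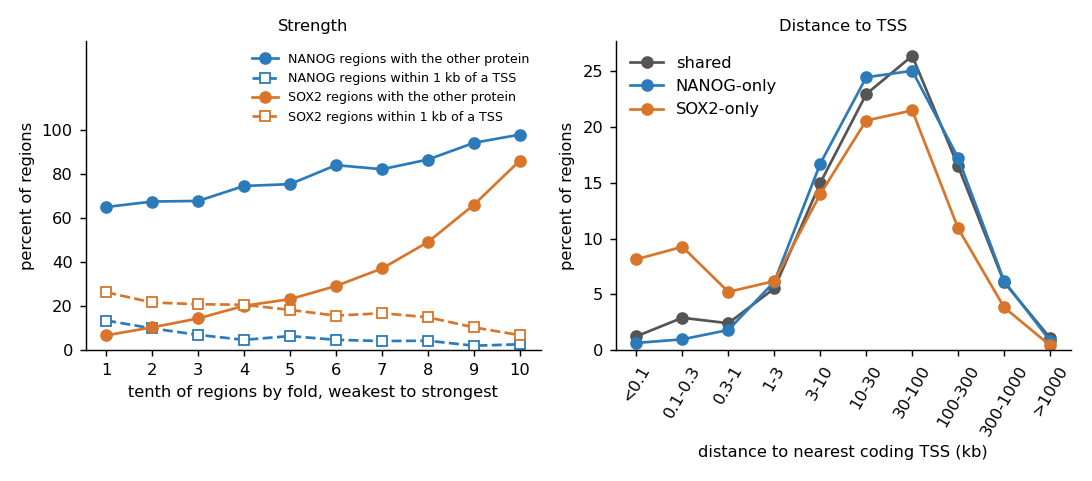
Left, percent of NANOG or SOX2 regions that also held the other protein (filled) or lay within 1 kb of a TSS (open), by decile of fold enrichment. Right, percent of regions of each class by distance (kb) from the nearest protein-coding TSS, where the SOX2-only class rises again below 1 kb, to 9.26% at 0.1 to 0.3 kb, against 2.90% of the shared and 0.968% of the NANOG-only regions.

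tRNA genes and replication-dependent histone genes were reached by SOX2-only regions but by no shared or NANOG-only region. These genes were looked at after the values had been seen. Of 403 RefSeq tRNA genes 118 (29.3%) were overlapped by 84 SOX2-only regions, and none by a shared or NANOG-only region. This counts direct overlap with the gene, unlike the shares within 1 kb of a TSS below. A share over all genes by direct overlap was not computed, so these counts have no background to be read against. The classes also differed in coverage, with 7.17 Mb for SOX2-only, 5.28 Mb for shared and 0.612 Mb for NANOG-only regions. By list, SOX2 peaks covered 113 and 87 tRNA genes and NANOG peaks 1 and 1. The short GATA6 lists at 0 h, with 84 and 880 peaks, covered none. The tRNA-Gln gene printed above (chr13:21172351-21172422) overlapped the edge of a SOX2-only region near Trim27 (chr13:21172365-21173250) with 2 tRNA genes. That region had a SOX2 fold of 23.4 and 15.5 and no NANOG peak. Its summit (chr13:21172723) lay outside the printed window. Replication-dependent histone genes of the Hist clusters, expressed in S phase, had a SOX2-only region within 1 kb of the TSS in 40 of 67 cases and no shared or NANOG-only one. SOX2 peaks reached 40 of them (59.7%) in each list, against 27.4% and 21.2% of all protein-coding genes in replicates 1 and 2. NANOG peaks reached 2 and 5 (2.99% and 7.46%), near the 3.72% and 6.40% of all protein-coding genes. Zfp184, beside the Hist1 and tRNA gene cluster, was nearest to 15 SOX2-only regions, the most of any gene. Over all 21829 protein-coding genes the shares with a region within 1 kb of the TSS were 13.4% for SOX2-only, 2.35% for shared and 0.293% for NANOG-only. Cytosolic ribosomal protein genes were near that level for SOX2-only regions (12 of 82, 14.6%), and none of 1133 olfactory receptor genes, which act in sensory neurons, had one. Of the olfactory receptor genes 2 had a shared region. tRNA and histone genes have near-identical copies, so the placement of reads among copies is uncertain.

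Base composition differed between the classes along with their distance to a TSS. In the 201 bp at the summit GC content was 51.0% ± 7.83 (SD over regions) at SOX2-only, 45.5% ± 5.82 at shared and 43.3% ± 5.36 at NANOG-only regions, against 41.6% in 52960 windows of the same length placed every 50 kb along the genome. The mean number of CpG was 4.79, 2.20 and 1.79, against 1.65. At distances over 1 kb from a TSS the order was kept, with a GC content of 48.8%, 45.0% and 43.1%. Repeat-masked sequence filled at least 50% of the window at 23.8% of shared, 17.9% of NANOG-only and 13.1% of SOX2-only regions, and at 30.5% of genome windows.

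Each class carried its own mix of motif letters, counted on both strands within 100 bp of the summit. A SOX core was present at 52.5% of shared, 45.2% of NANOG-only and 41.8% of SOX2-only regions, against 28.4% of genome windows. The SOX2-only value joined promoters (23.7%) with regions farther than 1 kb (47.1%). The composite was found at 6.40% of shared regions, 3.29% of NANOG-only and 2.24% of SOX2-only regions, against 0.487% of genome windows. A SOX core match can be part of a composite match. The NANOG core TAATGG was most frequent at NANOG-only regions (18.3%), and was found at 11.1% of shared and 6.44% of SOX2-only regions, against 8.54% of genome windows. The octamer followed the same order between the single-protein classes, with 6.71% at NANOG-only, 4.87% at shared and 3.40% at SOX2-only regions, against 1.83%. For shared regions the NANOG summit was used, and at their SOX2 summit the SOX core share was 50.5% and the composite share 4.60%.

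**Figure D4:**
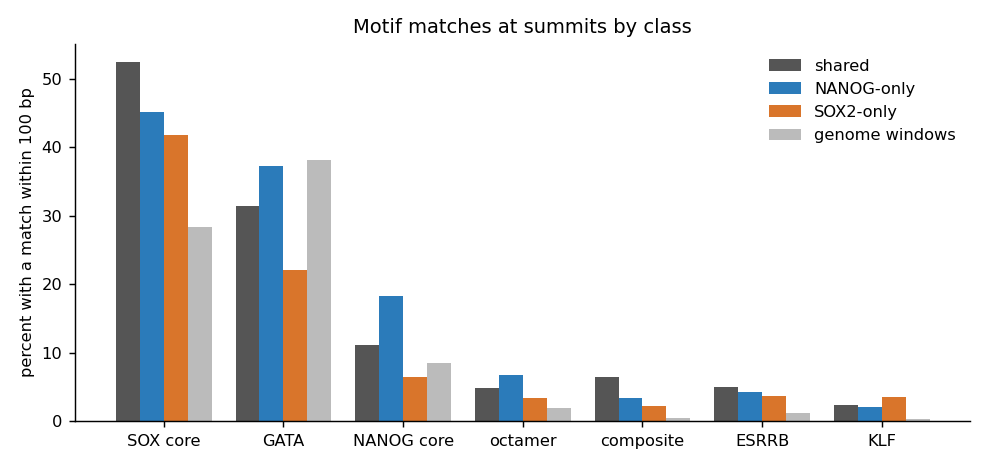
Percent of regions (vertical axis) with at least 1 motif match within 100 bp of the summit, by class, beside genome windows of the same length on a fixed grid. The SOX core and the composite are highest in the shared class, and the NANOG core and octamer in the NANOG-only class.

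The ESRRB half-site (CAAGGTCA) was present at 5.02% of shared, 4.26% of NANOG-only and 3.59% of SOX2-only regions, against 1.11% of genome windows. ESRRB is a nuclear receptor of the naive pluripotency network. KLF letters (GGGTGTGGC or GGGCGTGGC) were at 2.32%, 2.00% and 3.48%, against 0.304%. GATA letters (AGATAA, or AGATAG, or TGATAA, or TGATAG) were no more frequent than in genome windows (38.2%), with 37.3% at NANOG-only, 31.5% at shared and 22.0% at SOX2-only regions.

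SOX core and composite shares were higher in the strongest than in the weakest regions, to a different degree in each class. Among regions farther than 1 kb from a TSS, a SOX core was at 45.7% of the weakest and 65.9% of the strongest decile of shared regions ranked by SOX2 fold, and the composite at 4.17% and 14.0%. Ranked by NANOG fold, the same class gave 47.0% and 69.9% for the SOX core and 4.54% and 14.5% for the composite. In SOX2-only regions the SOX core went from 41.8% to 61.3% and the composite from 2.39% to 3.18%. NANOG-only regions, with 150 in a decile, went from 42.0% to 49.3% for the SOX core and from 17.3% to 21.3% for the NANOG core. The strongest deciles were not of like strength, with a median SOX2 fold of 27.1 for shared and 12.9 for SOX2-only regions. By SOX2 fold, other motifs of the shared class were lower in the strongest decile. The NANOG core went from 15.8% to 6.90%, GATA letters from 39.2% to 24.9%, ESRRB letters from 4.72% to 3.45% and KLF letters from 2.00% to 1.27%. Ranked by NANOG fold, the NANOG core instead went from 8.71% to 12.7%, and GATA letters from 33.9% to 29.4%. ESRRB letters then went from 6.17% to 3.27% and KLF letters from 3.45% to 0.907%. With 551 regions in a decile, the ESRRB and KLF shares rest on few regions. In SOX2-only regions the NANOG core went from 7.61% to 5.91%. Mean GC content was 44.1% and 45.3% in the weakest and strongest decile by SOX2 fold and 47.0% and 43.2% by NANOG fold.

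Genes were assigned by the nearest protein-coding TSS within 50 kb. Of 21829 genes 12.7% had a shared, 4.00% a NANOG-only and 26.8% a SOX2-only region. Read against this background, the shared class lay near many genes of the pluripotency network. Naive pluripotency factors had a shared region in 11 of 14 cases, FGF and ERK pathway genes in 10 of 10, and core pluripotency factors in 5 of 8. NODAL pathway genes had one in 5 of 8 cases and BMP and ID genes in 6 of 9. LIF and STAT3 pathway genes were reached in 4 of 7, WNT pathway genes in 5 of 10 and chromatin factors in 7 of 10. Primitive endoderm genes (2 of 12), trophectoderm genes (2 of 8) and housekeeping genes (1 of 10) were closest to the background. Formative and primed genes had one in 3 of 9 cases and neural and ectoderm genes in 5 of 10. Large regulatory neighbourhoods catch more regions of any class, and gene spacing was not adjusted for.

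The SOX2-only class also lay near most of these lists. It reached 9 of 14 naive and 6 of 8 core factors, 8 of 10 FGF and ERK, 10 of 10 WNT and 5 of 7 LIF and STAT3 pathway genes. It also reached 5 of 12 primitive endoderm, 3 of 8 trophectoderm, 5 of 9 formative and primed, 5 of 10 neural and ectoderm and 3 of 10 housekeeping genes, against 26.8% of all genes. NODAL pathway genes (3 of 8), BMP and ID genes (5 of 9) and chromatin factors (7 of 10) completed the lists. NANOG-only regions were near 4 of 10 chromatin factors (Jarid2, Suz12, Tet1 and Tet2), 3 of 14 naive factors (Klf5, Tfcp2l1 and Nr5a2), 2 of 8 core factors (Sox2 and Sall4), 2 of 10 FGF and ERK genes (Fgfr1 and Spry4) and 2 of 7 LIF and STAT3 genes (Lifr and Il6st). They were near 1 gene each of the NODAL (Skil), BMP and ID (Bmp2) and WNT (Lgr4) lists, and near none of the primitive endoderm, trophectoderm, neural and ectoderm or housekeeping genes, where 4.00% of all genes had one. Of the 874 genes with a NANOG-only region 360 also had a shared one.

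Among the core factors, Nanog itself had a strong shared region 4698 bp upstream of its TSS, with a NANOG fold of 13.9 and 23.5 and a SOX2 fold of 40.7 and 41.6. A second shared region lay 17381 bp upstream, and the promoter region 156 bp upstream was SOX2-only, with a fold of 7.72 and 10.9 and no NANOG peak. Around Sox2 the classes alternated. A region 3930 bp upstream was NANOG-only (5.57 and 7.46, no SOX2 peak), the region 467 bp upstream was SOX2-only (7.06 and 4.44), and that 3623 bp downstream was shared, with a NANOG fold of 6.31 and 7.83 and a SOX2 fold of 8.48 and 11.4. All 5 regions at Pou5f1 were SOX2-only. The strongest, 1841 bp upstream, had a SOX2 fold of 11.4 and 16.6 and a NANOG peak of fold 6.05 in replicate 2 only. At 3 of the 5 a NANOG peak was present in 1 list, and at 1, 3228 bp upstream, NANOG peaks of both lists (4.60 and 5.49) did not overlap each other.

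Naive factors had shared regions over a wide range of strength. Prdm14, a germ-line and naive-state regulator, had one 42036 bp downstream of its TSS with a NANOG fold of 18.4 and 28.6 and a SOX2 fold of 42.4 and 36.2. Its other regions were 1 shared and 5 SOX2-only. Tbx3 had one 9078 bp downstream with a NANOG fold of 15.2 and 24.9 and a SOX2 fold of 17.0 and 19.7. Esrrb, an orphan nuclear receptor, had 4 shared and 4 SOX2-only regions, and the strongest lay 31585 bp downstream, with a NANOG fold of 14.4 and 16.8 and a SOX2 fold of 15.6 and 20.2. At the low end were Nr5a2 (1907 bp upstream, NANOG fold 4.10 and 5.26, SOX2 fold 7.24 and 5.78) and the Zfp42 promoter (NANOG fold 6.83 and 4.32, SOX2 fold 8.49 and 9.52). In the shared region strongest by SOX2 at Klf2 NANOG fold was 7.87 and 7.36 and SOX2 fold 35.7 and 22.7, and in that at Nr0b1 NANOG fold was 3.68 and 10.6 and SOX2 fold 20.5 and 15.9. Klf4 had no region within 50 kb of its TSS by the nearest-gene rule.

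Signalling genes held shared regions, SOX2-only regions or both. Nodal, the ligand of its pathway, had 1 shared region 1879 bp upstream with a NANOG fold of 8.28 and 11.8 and a SOX2 fold of 32.2 and 28.9. Its co-receptor gene Tdgf1 had one 1197 bp upstream (NANOG 14.2 and 16.6, SOX2 16.2 and 20.3). Id3, an inhibitor of bHLH factors downstream of BMP, had one 3488 bp downstream (NANOG 14.7 and 22.0, SOX2 17.6 and 22.9). The LIF receptor genes Lifr and Il6st each had 2 shared regions, while Socs3, the feedback inhibitor of that pathway, had 7 regions and all were SOX2-only. The strongest of those reached a SOX2 fold of 17.2 and 12.1. In the FGF pathway the ETS factor gene Etv5 had 4 shared and 7 SOX2-only regions. The promoter regions of the feedback inhibitors Spry4 (96 bp upstream, SOX2 fold 19.8 and 15.7) and Dusp6 (65 bp upstream, 10.9 and 8.84) were SOX2-only, and a NANOG peak was present at the first in 1 list.

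Among chromatin factors, Jarid2 (23857 bp upstream, NANOG 18.9 and 23.5, SOX2 34.6 and 38.1), Mycn (1600 bp upstream, NANOG 25.3 and 32.5, SOX2 36.3 and 24.4) and Tet2 (19558 bp downstream, NANOG 21.3 and 24.4, SOX2 12.0 and 21.5) had shared regions in the same range as the pluripotency factors. Tfap2c of the trophectoderm list had 4 shared regions, the strongest with a SOX2 fold of 33.1 and 35.3. Of the primitive endoderm genes, Gata6, Gata4, Sox17, Sox7, Foxa2, Dab2 and Cubn had no region of any class. Pdgfra had 2 shared and 2 SOX2-only regions, and its strongest was SOX2-only (11.6 and 17.6). Genes with the most shared regions were Etl4, Fryl, Klf9, Myo10 and Sgms1 with 6 each. Those with the most SOX2-only regions after Zfp184 were Etl4 and Rbpms (9 each) and Rapgef1 and Zfp704 (8 each). No gene had more than 3 NANOG-only regions, and Ablim1, Arid5b, Arl14epl, BC053393 and Dip2b were the first by name among those with 3.

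The classes set at 0 h differed in what was bound there later. Cells at later time points had been moved to serum medium with doxycycline, so time, medium and GATA6 induction cannot be told apart. GATA6, which was nearly absent from all classes at 0 h (at most 0.441%), had peaks 2 h after induction at 91.2% and 84.9% of shared regions in replicates 1 and 2, at 70.1% and 59.2% of NANOG-only and at 74.1% and 60.8% of SOX2-only regions. These 2 h lists were long, with 79356 and 62681 peaks, against 84 and 880 in the GATA6 lists at 0 h. The part of list length was not tested, and a share over all regions of the series was not computed. At 2 h the shared class exceeded the NANOG-only class by 23.4 ± 3.26 percentage points (SD, n = 2) and the SOX2-only class by 20.6 ± 4.96. Without NANOG replicate 1 or 2 at 0 h the first difference was 37.8 or 40.6 points, and 45.5 with a peak in either replicate. The direction was the same within bins of strength, which match it only coarsely. The strongest NANOG bin held 1427 shared and 62 NANOG-only regions, and the weakest SOX2 bin 295 shared and 3157 SOX2-only regions. In each of 5 bins of NANOG fold and in both lists the GATA6 share was higher at shared than at NANOG-only regions, by 15.3 to 23.9 points in replicate 1 and 17.7 to 26.6 in replicate 2. Within bins of SOX2 fold the gap to SOX2-only regions was smaller in replicate 1, from 7.19 to 15.7 points. It was from 10.5 to 23.8 in replicate 2, with shared regions higher in 5 of 5 bins of each. The GATA6 lists recorded for 4, 8 and 48 h carry peak names of other time points and are given only as a range, from 5.94% to 73.6% of shared, 2.19% to 43.9% of NANOG-only and 3.599% to 53.0% of SOX2-only regions. In all 24 lists of induced cells the shared class had the highest share. A peak anywhere in a region counted, and shared regions were the widest. Their median was 823 bp, against 569 bp for SOX2-only and 376 bp for NANOG-only regions. The part of region width in these shares was not tested.

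**Figure D5:**
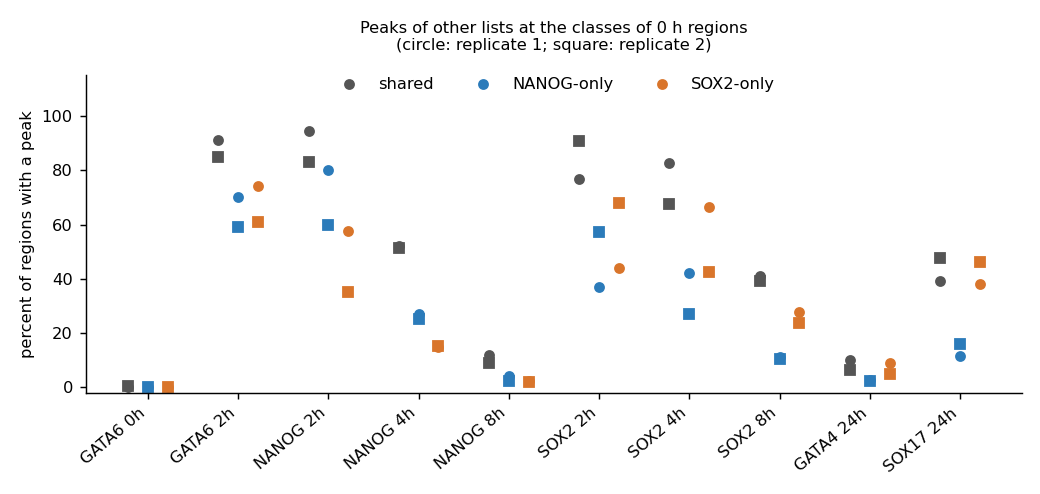
Percent of the regions of each 0 h class (vertical axis) that held a peak of a later list or of GATA6 at 0 h, for replicate 1 (circles) and replicate 2 (squares). The shared class is highest in every list of induced cells, and the order of the other classes depends on the protein.

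At later times NANOG and SOX2 peaks were most frequent at shared regions. NANOG peaks were found at 88.6% ± 8.02 of shared, 70.0% ± 14.1 of NANOG-only and 46.2% ± 15.9 of SOX2-only regions at 2 h (mean ± SD, n = 2). At 4 h the shares were 51.6% ± 0.564, 26.1% ± 1.32 and 15.1% ± 0.442, and at 8 h 10.3% ± 1.98, 3.39% ± 1.32 and 2.11% ± 0.367. SOX2 peaks were found at 83.9% ± 9.86 of shared, 47.1% ± 14.2 of NANOG-only and 56.0% ± 17.0 of SOX2-only regions at 2 h. At 4 h these were 75.1% ± 10.5, 34.6% ± 10.6 and 54.5% ± 16.8, and at 8 h 40.0% ± 1.22, 10.8% ± 0.684 and 25.5% ± 2.87. The order of the single-protein classes differed between NANOG and SOX2 lists. In each of the 6 later NANOG lists NANOG-only exceeded SOX2-only regions, and in each of the 6 later SOX2 lists the order was the opposite. By NANOG fold, shared regions still held a NANOG peak at 4 h more often than NANOG-only regions in 5 of 5 bins. This held in both lists (by 11.4 to 24.4 and 15.1 to 30.2 points). By SOX2 fold, shared regions held a SOX2 peak at 2 h more often than SOX2-only regions in 5 of 5 bins. The gap was 10.9 to 17.7 points in replicate 1 and 5.00 to 19.4 in replicate 2. At 4 h the gap was smaller, from -0.692 to 4.32 points in replicate 1 and from 3.42 to 7.16 in replicate 2. List lengths varied over the same times, from 2253 peaks (NANOG at 8 h, replicate 2) to 52572 (SOX2 at 2 h, replicate 2). The part of list length and of region width in these shares was not tested.

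SOX17, a SOX factor of the primitive endoderm, was found more often at shared and SOX2-only than at NANOG-only regions at 24 h. Its peaks were at 39.25% and 47.6% of shared regions, 37.9% and 46.4% of SOX2-only and 11.4% and 16.0% of NANOG-only regions. The SOX2-only class exceeded the NANOG-only class by 28.5 ± 2.66 points (SD, n = 2). This order of the single-protein classes was not particular to SOX17. It held in each of the 8 GATA6, 6 SOX2 and 2 GATA4 lists of induced cells, and in none of the 6 NANOG lists. Within bins of SOX2 fold the order of the first pair turned, and SOX2-only regions held a SOX17 peak more often than shared ones in 5 of 5 bins. Shared minus SOX2-only was -11.8 to -5.91 points in replicate 1 and -12.1 to -5.74 in replicate 2, and -6.69 to -2.13 and -7.496 to -2.15 among regions farther than 1 kb from a TSS. SOX2-only promoters held SOX17 peaks in 63.0% and 72.8% of cases. GATA4 peaks at 24 h were at 8.20% ± 2.59 of shared, 6.91% ± 3.04 of SOX2-only and 2.48% ± 0.411 of NANOG-only regions, and within lists shared exceeded SOX2-only regions by 1.28 ± 0.451 points (SD, n = 2).

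Whether the lists of the 2 proteins differed beyond their replicates was tested on whole lists, with a two-sided exact permutation of the protein labels within each time point. The 8 NANOG and 8 SOX2 lists of 0, 2, 4 and 8 h were used, since 2 lists against 2 at 0 h alone cannot give a p below 0.3333. SOX2 peaks were wider, by 87.9 bp on average over the time points, with a median of 380 and 367 bp at 0 h against 277 and 271 bp for NANOG (exact permutation p = 0.00154, the smallest these arrangements allow, 0.00617 adjusted over 4 tests). SOX2 lists were wider at each of the 4 time points without overlap. Peak width also follows depth, in which the 0 h lists differed, and its part was not tested. The promoter share of peaks was higher for SOX2 by 4.47 percentage points (exact permutation p = 0.00617, adjusted 0.0123). At 0 h it was 18.03% and 16.2% for SOX2 against 6.68% and 7.92% for NANOG, and this was the largest of the 4 differences, at 9.81 points. At 2 h the lists overlapped, with 11.3% ± 0.289 for SOX2 and 11.4% ± 0.0661 for NANOG (SD, n = 2). With the top 2000 peaks of each list the difference over all times was 1.33 points and did not pass the test (adjusted p = 0.198, exact permutation).

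GC content at summits and the SOX core share did not pass the test after adjustment. GC content was higher for SOX2 lists by 1.16 points (exact permutation p = 0.0448, adjusted 0.0597), with 49.8% and 48.8% at 0 h against 45.5% and 45.9% for NANOG. The SOX core share was higher for SOX2 lists by 4.30 points over all times (exact permutation p = 0.0710, adjusted 0.0710). At 0 h it was lower, with 37.9% and 43.1% of SOX2 peaks against 45.1% and 46.5% of NANOG peaks. With the top 2000 peaks of each list the difference over all times was 14.8 points and passed (exact permutation, adjusted p = 0.00926). Without replicate 1 of SOX2 at 0 h the SOX core difference (4.95 points, adjusted p = 0.0309) and the GC difference (1.039 points, adjusted p = 0.0448) passed by the same exact permutation.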

How the data were processed

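CUT&RUN libraries were aligned by the authors to mm10 (GRCm38) with Bowtie2, blacklisted reads were removed with SAMtools, and duplicates, marked with Picard, were kept. Peaks were called by the authors with MACS for each library, without pooling, against a rabbit anti-rabbit control. The deposited lists give for each peak the fold enrichment (a ratio of pileup to background), the −log10 p, the −log10 q-value (at least 1.30 in all lists) and the summit. Whether the authors' selection of short fragments for signal tracks also preceded peak calling is not given in the sources used here. No read counts were used, and the 27 other samples of the series were not analysed here. The NANOG-only count of the formative and primed list is not reported here.

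Depth was read from the lists. Fold and −log10 p fix the pileup and background of a peak, which came out whole (within 0.002 in −log10 p) for 99.99% of peaks in every list, and the most frequent background is the depth given. Duplicate reads count toward it, so it measures reads, not molecules.

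The 2 mitochondrial regions of each protein were left out. Peaks overlapping by 1 bp were merged, and each region took the summit of its most significant peak by q-value (a NANOG peak for shared regions). All 775295 peaks of the 30 lists lay inside the GRCm38.p6 chromosomes. TSSs came from GENCODE vM21, tRNA genes and sequences from RefSeq. Promoters lay within 1 kb of a TSS, then exon, intron and intergenic were assigned in that order. Tests were exact permutations over lists with Benjamini-Hochberg adjustment over 4 tests (Python 3.11.15, numpy 2.4.6, pandas 2.3.3, scipy 1.17.1, pysam 0.24.0). Other values are descriptions. The functions were tested on simulated data. The regions, gene lists (13 lists, 123 genes, with Fgf4 and Lef1 in 2 lists each), motifs and tests were chosen with earlier results of these data known. Named were the 5 strongest regions and 5 genes with the most regions per class, genes of the lists, and regions near Nanog, Sox2, Pou5f1, Klf4, Esrrb, Tbx3 and Prdm14, while tRNA, histone, ribosomal protein and olfactory receptor genes were chosen after their values were seen. Alternatives covered the overlap rule, the q-value, list length, the replicate rule, each left-out list, promoter and motif windows and the gene rule.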

Additional observations from a re-analysis of the deposited data

Results flagged for a closer look

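The share of peaks with a SOX core within 100 bp of the summit changed sides between time points without overlap of the lists. SOX2 minus NANOG was -5.27 percentage points at 0 h, where both SOX2 lists lay below both NANOG lists, and 5.24 at 2 h, 5.93 at 4 h and 11.3 at 8 h, where both SOX2 lists lay above. The difference between the time points was not tested. With the top 2000 peaks of each list the lists overlapped at 0 h, at 55.8% and 61.3% for SOX2 and 55.9% and 59.4% for NANOG. At 0 h promoters, which hold fewer SOX cores, made up 18.03% and 16.2% of the SOX2 peaks, and their part in the change was not tested.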

How the results depend on the processing

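Under an overlap of 50% of the shorter region every value by class kept its direction and moved by less than its error, and counts by less than 1.5 times. Class sizes depended on thresholds. With −log10 q of at least 5 there were 3410 shared and 863 NANOG-only regions, and 1712 genes near a shared and 500 near a NANOG-only region. The top 10000 peaks of every list gave 3697 shared, 2532 NANOG-only and 3254 SOX2-only regions, with 1355 genes near NANOG-only and 2036 near SOX2-only regions. A peak in either replicate gave 12774, 5893 and 27995 regions, near 5163, 2990 and 10553 genes. Only classes free of any peak of the other protein held 655 and 7482 regions, and 393 genes lay near the former. Counting any region within 50 kb of a TSS gave 5180, 1638 and 10884 genes.

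In the order −log10 q of at least 5, a peak in either replicate and classes free of the other protein, the log2 ratio of NANOG fold between shared and NANOG-only regions was 0.29, 0.43 and 0.41. That of SOX2 fold was 0.67 under the first, 0.46 with the top 10000 peaks and 0.82 with the free classes. The ratio of SOX2 peak widths, shared to SOX2-only (1.55 as reported), was 1.38, 1.27, 1.81 and 1.67 under −log10 q of at least 5, the top 10000 peaks, either replicate and the free classes, and the promoter share of SOX2-only minus NANOG-only regions (19.2 points) was 15.7, 16.9, 15.7 and 23.8, with 17.3 for summits within 200 bp and 20.7 for TSSs of all genes. The intron share of NANOG-only minus SOX2-only regions (17.2 points) was 13.1 for summits within 200 bp, 12.3 for the top 10000, 12.1 for either replicate and 22.2 for the free classes. The SOX core share of shared minus SOX2-only regions (10.7 points) was 12.6, 8.04 and 12.5 under the first 3 of these, 6.00 within 50 bp and 8.73 at SOX2 summits. The excess of GATA6 at 2 h at shared over NANOG-only regions (23.4 points) was 15.4 for summits within 200 bp, 17.9 for −log10 q of at least 5, 18.02 for the top 10000, 45.5 for either replicate and 30.0 for the free classes. The causes were not tested.

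Leaving out each 0 h list in turn (its protein then defined by the other list) gave 6296 to 9017 shared, 1059 to 6763 NANOG-only and 8240 to 25376 SOX2-only regions. Fold ratios were 0.35 to 0.45 for NANOG and 0.59 to 0.98 for SOX2, the width ratio 1.49 to 1.95, and the promoter, intron and SOX core differences 15.8 to 19.6, 15.0 to 17.0 and 7.32 to 16.5 points. The GATA6 excess was 24.0 to 40.6 points. Genes called were 2916 to 4018, 625 to 3277 and 4758 to 9875. In the list tests the promoter difference was 4.25 to 4.70 points, the width difference 86.2 to 89.5 bp, the SOX core difference 3.66 to 4.95 points and the GC difference 1.039 to 1.27 points.

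With the top 2000 peaks the promoter difference between lists no longer passed (1.33 points) and the SOX core difference did (14.8). At 0 h alone the differences were 9.81 points for promoters and 99.5 bp for width, with no p under 0.05 possible, and the SOX core difference turned to -5.27 points. Deviations of same-numbered NANOG and SOX2 lists correlated at 0.0694, -0.0396, 0.0196 and -0.0314 at 0, 2, 4 and 8 h. These values compare folds over shared regions, so they cannot decide whether same-numbered lists came from the same culture. The replicate block left the differences as they were (promoter 4.47 points, width 87.9 bp, SOX core 4.30 points, GC 1.16 points), and changed no call, with exact permutation p-values adjusted to 0.0469, 0.0313, 0.109 and 0.109. The smallest pileup called was 6 or 7 fragments for NANOG and 4 or 5 for SOX2, over unlike backgrounds. The part of depth in the only classes was not tested.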
